A study of Mus musculus with 6 samples.

Results

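Promoter peaks that were called only after loss of the transcription factor OTX2 are described here: stretches of accessible chromatin, within 1 kb of an annotated gene start, that the authors' pooled peak list holds for OTX2-depleted cells and not for control cells. Membership was chosen by measured values, namely by whether a peak of the authors' table overlapped, by at least 1 base, a peak of the dTAG13 list and no peak of the DMSO list. The rule found 1747 of the 70494 peaks in the table, and 21639 of those 70494 were promoter peaks of any kind. The members lay at 1664 genes, which is 11.1% of the 14926 genes with a promoter peak.

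The cells were mouse definitive endoderm made in culture from a line named 7H of BL6/129 hybrid background, in which OTX2 is fused to a dTAG degradation tag and EGFP. Both groups carried the tagged OTX2 and received 40 ng/ml Activin A with 3 uM CHIR for 16 h and then 100 ng/ml Activin A with 100 nM LDN for 24 h. From the primitive streak stage onward, for 24 h, one group received dTAG13, a small molecule that brings the tagged protein to the degradation machinery, and the control group received DMSO, its solvent. ATAC-seq libraries, in which a transposase inserts adapters into open chromatin, were made from 50000 sorted live cells each, with 3 libraries per group. By the design text, the 3 libraries within each group are technical replicates, here of 1 line, so every spread given here is that between repeated libraries and need not include that between cultures.

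OTX2 is a homeodomain protein that binds DNA words containing GGATTA and is known for its roles in the anterior epiblast, the anterior endoderm and the brain. Promoters in mammals are of broadly different kinds: many lie in CpG islands, stretches rich in GC and in the CG dinucleotide that stay accessible in most cell types, and others are CpG-poor and open in particular tissues. A peak caller decides for each pooled library set whether the reads at a place exceed the local background, so that a weak promoter signal can be listed in one group and missed in the other.

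The sequences of 6 members are shown because they span the kinds of promoter DNA found, from a CpG-bearing stretch with no searched word (Dtx1) through peaks with a TEAD word (Fam129b, Epha1), an OTX word (Reln) or a FOX word (Gm22132) to a simple repeat (Gm18326). They are plus-strand bases of GRCm38.p6, the assembly of mm10, at chr5:120706646-120706886, chr2:32915089-32915277, chr6:42372862-42372935, chr5:22049027-22049291, chr1:136756592-136756789 and chr6:132463715-132463802 in that order. None overlaps an exon of the annotations used. Capitals mark the consensus words searched on either strand, and overlapping words run together: GGAATG for TEAD, GGATTA for OTX, CCAAT for NFY and TGTTTAC for FOX.
Dtx1: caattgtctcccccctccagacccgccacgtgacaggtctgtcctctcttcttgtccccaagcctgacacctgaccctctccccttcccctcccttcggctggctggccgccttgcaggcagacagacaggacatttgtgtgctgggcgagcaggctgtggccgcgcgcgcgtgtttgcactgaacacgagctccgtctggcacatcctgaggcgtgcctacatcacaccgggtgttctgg
Fam129b: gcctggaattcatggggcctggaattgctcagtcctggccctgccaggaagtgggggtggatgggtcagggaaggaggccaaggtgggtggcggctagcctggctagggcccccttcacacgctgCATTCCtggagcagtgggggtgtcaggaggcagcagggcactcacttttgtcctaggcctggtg
Epha1: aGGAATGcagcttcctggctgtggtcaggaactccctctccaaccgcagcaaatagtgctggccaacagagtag
Reln: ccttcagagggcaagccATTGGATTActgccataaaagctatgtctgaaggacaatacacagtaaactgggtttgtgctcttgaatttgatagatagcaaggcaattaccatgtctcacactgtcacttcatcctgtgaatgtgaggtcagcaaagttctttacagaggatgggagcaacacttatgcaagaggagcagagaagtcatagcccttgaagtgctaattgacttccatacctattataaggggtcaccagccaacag
Gm22132: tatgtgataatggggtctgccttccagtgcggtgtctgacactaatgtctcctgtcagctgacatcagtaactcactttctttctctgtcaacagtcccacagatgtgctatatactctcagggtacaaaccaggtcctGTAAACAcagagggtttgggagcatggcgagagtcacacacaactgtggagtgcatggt
Gm18326: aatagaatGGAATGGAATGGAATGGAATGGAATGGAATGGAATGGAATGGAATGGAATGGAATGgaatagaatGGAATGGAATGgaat

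The Dtx1 peak, 877 bases upstream of the start of a gene for a ubiquitin ligase of the Notch pathway, holds 14 CG dinucleotides and none of the 16 words searched. In Reln, whose product is a secreted protein that guides migrating neurons, the OTX word and the NFY word share bases, and the 265-base peak holds 0 CG dinucleotides. The OTX word of that peak lies outside the central 200 bases used for the counts further on. The Gm18326 stretch is a run of the unit GGAAT in soft-masked sequence, in which the TEAD word occurs 13 times by repetition. A word in a sequence is a description of its letters and not a bound site.

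The members were short and weak peaks. Their median length was 82 bases (range 59 to 303), against 231 for the 15354 promoter peaks found in both lists. The median of the mean normalized count in the authors' deposited table was 5.89 (range 1.75 to 24.1), against 23.0 for promoter peaks of both lists and 6.02 for the 4538 promoter peaks of the DMSO list alone. A normalized count is the number of reads divided by a size factor that adjusts for the depth of the library. The table gives 1 mean over all libraries and no value per library, but the mean, the fold change and its standard error (SE) together allowed the reads in each library to be solved for all 1747 members. The solution names no replicate number, so libraries are called here the deepest, the middle and the shallowest of their group.

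The DMSO libraries were the deeper ones, with size factors of 1.35, 1.31 and 1.09, against 0.961, 0.823 and 0.780 for dTAG13, a ratio of the sums of 1.46. In the members the order was the opposite. The 3 DMSO libraries held 9310, 8964 and 7316 reads in all members together, and the 3 dTAG13 libraries 14971, 13028 and 12027. The median member had 4 reads in each DMSO library and 8, 7 and 6 reads in the dTAG13 libraries. The libraries of a group were alike in these sums, and no single dTAG13 library carried the dTAG13 sum. The rule chose members by the same contrast, so the excess of dTAG13 reads is built in and supports nothing. Over the 6 libraries a member rested on a median of 35 reads (range 10 to 146), so the precision of any one peak is low.

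Most members had reads in control cells. Reads were found in every DMSO library for 1248 members (71.4%, 95% Wilson interval 69.3 to 73.5, which covers counting error only) and in every dTAG13 library for 1616 (92.5%). No DMSO read at all was found for 23 members (1.32%). The mean normalized count had a median over members of 3.59 in DMSO and 8.18 in dTAG13. In 662 members (37.9%) a single dTAG13 library held over 50% of the dTAG13 signal. Among the 10482 values of reads per library, 74.8% were even numbers, and why was not tested.

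**Figure D1:**
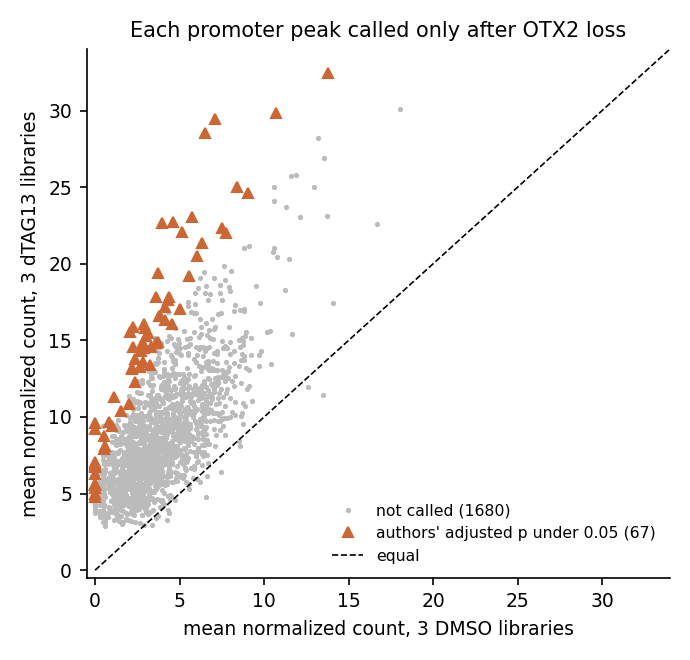
Mean normalized count of each member in the 3 DMSO libraries (horizontal axis) and the 3 dTAG13 libraries (vertical axis), both in reads divided by size factor, with the line of equal counts dashed. The 67 members called by the authors' adjusted p (triangles) lie along the upper left edge, and a column of points at 0 on the horizontal axis is formed by the 23 members with no DMSO read.

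Since the rule uses the 2 groups' peak lists, a fold change above 0 was built into the choice of members and supports nothing. Log2 fold changes of dTAG13 over DMSO in the authors' deposited table had a median of 1.21 over the members, with quartiles of 0.82 and 1.73 and a range of -0.42 to 6.03. With the 23 members without a DMSO read set at the lower bound that 3 reads per DMSO library give, the median was 1.21 as well. The authors' deposited table has a fold change above 0 for 1730 members (99.0%) and of 0 or less for 17. It gives an adjusted p under 0.05, higher in dTAG13, for 67 of the 1745 members that have one (3.84%, 3.03 to 4.85). Over all 69128 peaks tested, 1.47% were called higher and 3.79% lower, and 0 members were called lower. By the authors' deposited table, 529 members had an unadjusted p under 0.05. The rule uses the same contrast and the share over all peaks is not given here, so nothing is read from this number.

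Every dTAG13 library lay above every DMSO library in 694 members (39.7%, 37.5 to 42.0), and this order was found in 9.54% of the 60172 peaks solved. The rule uses the same contrast, so nothing is read from the difference between these shares. In the other members the groups overlapped: 696 had 2 dTAG13 libraries above all DMSO libraries, 306 had 1 and 51 had 0. Calls at single peaks depended on having all libraries. limma on the recovered reads, an analysis added after the data had been seen, called 98 members higher, 59 of them among the authors' 67. Over all 60172 peaks tested, this fit called 993 higher (1.65%), and nothing is read from the difference, since the rule uses the same contrast. Leaving out any 1 of the 6 libraries reduced the 98 to between 13 and 33, for which the number over all peaks is not given here.

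The 67 called members had log2 fold changes of 1.25 to 6.03 and mean normalized counts of 2.38 to 23.1 in the authors' deposited table. They lay mostly at protein-coding genes (50 of 67), and 35 of the 67 were assigned by the authors to genes with no DMSO list promoter peak of their own. Of these 67, 25 had a peak of the DMSO list within 1000 bases, and 10 covered an annotated start site. In 65 of the 67 every dTAG13 library was above every DMSO library, the exceptions being Ptk7 and Tmem40, each with 2. These 2 were named after their values had been seen. Called members were picked by a test on the same libraries. Such an order is thus largely built into their choice and supports nothing, here and for the called members named below.

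The smallest adjusted p belonged to Dtx1, with 13, 8 and 6 reads in the DMSO libraries from the deepest to the shallowest and 38, 18 and 21 reads in the dTAG13 libraries. The groups did not overlap, and the lowest dTAG13 value exceeded the highest DMSO value although its library was shallower. The authors' deposited table gives Dtx1 a log2 fold change of 2.05 (SE 0.46) and its adjusted p as 0.00153. No DMSO list peak lay within 7561 bases of it. For Fam129b, which encodes a protein of the Niban family, 6, 5 and 4 reads stood against 26, 22 and 11, again without overlap, and the peak lay 472 bases downstream of the start. Its log2 fold change in the authors' deposited table was 2.51 (SE 0.56).

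Reln had 6, 15 and 4 reads in DMSO and 35, 30 and 10 in dTAG13. After division by size factors the lowest dTAG13 value was 12.8 and the highest DMSO value 11.4, so the groups were apart by a small margin. The authors' deposited table gives Reln a log2 fold change of 2.12 (SE 0.51) and an adjusted value of p = 0.00398. At Gm22132, a predicted gene annotated as a microRNA gene, reads were 8, 8 and 2 against 15, 18 and 24, and the groups were apart. At AL603834.1 they were 0, 4 and 4 against 15, 19 and 7.

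The remaining members of the smallest adjusted p with DMSO reads sat at annotated start sites, and each lay apart in all libraries. Tti2 encodes a subunit of a co-chaperone complex for large kinases of the DNA damage response, and its peak covered a start site with 4, 6 and 4 reads in DMSO and 20, 15 and 15 in dTAG13. The peak of Csmd1, which encodes a transmembrane protein with complement control domains, had 2, 5 and 1 against 16, 13 and 11 reads over a start site with 20 CG dinucleotides in its 200 bases. Smarcad1 encodes an SNF2-family chromatin remodeller, and its peak, 103 bases from a DMSO list peak, had 12, 6 and 4 against 16, 21 and 21 reads. In the authors' deposited table these 3 had log2 fold changes of 2.38 (SE 0.58), 2.88 (SE 0.73) and 1.98 (SE 0.52).

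**Figure D2:**
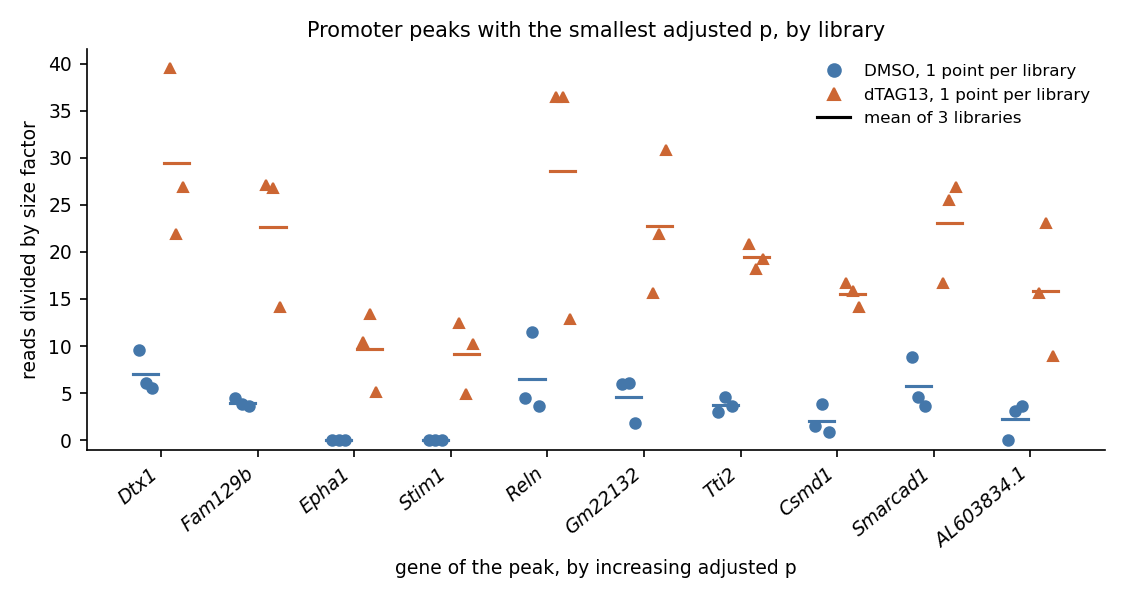
Reads divided by size factor (vertical axis) in each of the 3 DMSO libraries (circles) and 3 dTAG13 libraries (triangles) for the 10 members with the smallest adjusted p, with the mean of each group as a bar. In all 10 the lowest triangle stands above the highest circle, and Epha1 and Stim1 have 0 reads in DMSO. These 10 were picked by a test on the same libraries, so this order supports nothing.

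The largest fold changes all came from members with 0 reads in the 3 DMSO libraries. Epha1, an ephrin receptor tyrosine kinase gene, had 10, 11 and 4 reads in the dTAG13 libraries, and Stim1, which encodes the calcium sensor of the endoplasmic reticulum, had 12, 4 and 8. Against an assumed floor of 3 reads per DMSO library, the dTAG13 mean was at least 3.98-fold higher at Epha1 and at least 3.80-fold higher at Stim1. Here and below, such values hold for that floor only and leave out the error of the dTAG13 mean. These members were also picked for their fold changes, so the values support nothing. The log2 fold changes of 6.03 and 5.97 that the authors' deposited table gives for them are fitted values and no bounds. The Epha1 peak lay 175 bases from a DMSO list peak, whereas the nearest one to the Stim1 peak was 8407 bases away.

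The others were mostly at predicted genes and pseudogenes. For Gm9484 the reads in dTAG13 were 13, 2 and 4, so that most came from 1 library. Against the same floor its dTAG13 mean was at least 2.90-fold higher. At Gm15735 they were 8, 6 and 4 (at least 2.86-fold higher) and at Gm18326 4, 9 and 4 (at least 2.79-fold higher). Lmx1a, a LIM homeobox gene of the roof plate and the ventral midbrain, had 4, 7 and 6 reads 320 bases upstream of its start, at least 2.80-fold higher. Defb44-ps had 6, 3 and 7, Gm15131 had 4, 2 and 8, and both the zinc finger gene Zfp951 and BB031773 had 4, 4 and 6 reads. Over the 23 members without a DMSO read the dTAG13 reads summed to between 10 and 25, and 13 of the 23 were called in the authors' deposited table.

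At the strong end, members were accessible in both groups. Ubxn6, which encodes a cofactor of the p97 ATPase, had 24, 26 and 18 reads in DMSO and 35, 20 and 23 in dTAG13. The log2 fold change in the authors' deposited table was 0.74 (SE 0.36), with adjusted p = 0.223. Tmem229a had 12, 22 and 17 against 35, 29 and 20 reads, and Trib1, a pseudokinase gene, had 12, 16 and 12 against 31, 26 and 20. Both were called in the authors' deposited table, with log2 fold changes of 1.25 (SE 0.38) and 1.49 (SE 0.40) and adjusted p of 0.0296 and 0.0116.

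Cpeb3, which encodes a regulator of mRNA translation, had 10, 24 and 15 reads in DMSO and 31, 22 and 20 in dTAG13, and was not called in the authors' deposited table (log2 fold change 1.11, SE 0.41, adjusted p 0.0825). Car2, a carbonic anhydrase gene, had 19, 24 and 9 against 22, 18 and 28 reads, and its peak lay 52 bases from a DMSO list peak. For these 5 strongest members every dTAG13 library was above every DMSO library once divided by its size factor, although the raw reads of all but Trib1 overlapped.

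Markers of cell identity were looked up among promoter peaks, since ATAC-seq gives no RNA level. All 10 definitive endoderm markers (Sox17, Foxa2, Cxcr4, Gata6, Gata4, Eomes, Gsc, Cer1, Hhex and Epcam) had a promoter peak in both lists. Of 6 primitive streak and mesoderm markers, Mixl1 and Pdgfra had one, and T, Mesp1, Tbx6 and Kdr did not. Such a peak was also found for 1 of 4 pluripotency markers (Sox2), 1 of 2 neural markers (Pax6), 2 of 3 of extraembryonic endoderm (Sox7 and Afp) and 1 of 3 of blood and endothelium (Etv2). A promoter peak in both lists is common, being present at 12368 of the 14926 genes with any promoter peak. In the longer list of 29 definitive endoderm genes used below, 22 had one. These peaks alone therefore do not settle the cells' identity.

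Members were found among the genes of every lineage and pathway list examined, in small numbers. Of the genes with any promoter peak, a member was present at 2 of 26 definitive endoderm genes, 4 of 18 primitive streak and mesoderm genes, 3 of 20 neural ectoderm genes, 3 of 15 pluripotency genes and 5 of 15 extraembryonic endoderm and trophoblast genes. The counts were 4 of 17 for WNT feedback targets, 2 of 22 for Hippo and TEAD genes, 2 of 24 for NODAL and BMP signalling, 1 of 24 for FGF signalling, 2 of 11 for posterior genes, 2 of 11 for anterior homeobox genes and 2 of 7 for blood and endothelium. Over all genes the share was the 11.1% given above, and with so few members per list no list is singled out. The only listed gene with a call in the authors' deposited table was Sox1.

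Sox1, a transcription factor gene of the early neural plate, had 10, 15 and 9 reads in DMSO and 23, 20 and 20 in dTAG13, with its peak 277 bases downstream of the start. The groups were well apart, and the dTAG13 libraries had a mean normalized count of 24.6 ± 0.908 (SD, n = 3) against 9.04 ± 2.13 (SD, n = 3) in DMSO. Its log2 fold change in the authors' deposited table was 1.44 (SE 0.44), with adjusted p = 0.0299. Of the other neural genes, En1, a homeobox gene of the midbrain-hindbrain boundary, had 2, 14 and 4 against 16, 10 and 14 reads, and its adjusted p by the authors' deposited table was 0.121. After division by size factors the groups were apart at En1. At Sox3 the reads of 7, 10 and 7 and of 6, 10 and 6 overlapped.

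Among primitive streak and mesoderm genes, T (Brachyury) had 0, 3 and 6 reads in DMSO and 12, 8 and 0 in dTAG13, and the groups overlapped, with a library at 0 on each side. Evx1, a homeobox gene of the posterior streak, had 0, 4 and 3 against 14, 5 and 6 reads at its start site and was apart. The authors' deposited table gives Evx1 a log2 fold change of 2.33 (SE 0.89) with adjusted p = 0.0988. Kdr, the VEGF receptor gene, had 5, 12 and 9 against 13, 8 and 15 reads, and Hand1 5, 2 and 4 against 3, 4 and 7. After division by size factors Kdr was apart and Hand1 was not. The promoter members of these 4 genes had no DMSO list promoter peak beside them at the same gene, and none of the 4 was called in the authors' deposited table.

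Both definitive endoderm genes with a member already had a promoter peak in the DMSO list. Eomes, a T-box gene needed to form endoderm, had 10, 2 and 5 against 6, 10 and 4 reads, which overlapped, 460 bases from a DMSO list peak. Shisa2, an antagonist of WNT and FGF receptors, had 2, 4 and 0 against 7, 0 and 9. For the WNT-linked genes, Lgr5, a receptor gene for R-spondins, had 6, 14 and 4 against 10, 20 and 10 reads at its start site, and Ccnd1 (cyclin D1) 11, 8 and 13 against 11, 11 and 15. The values of Tcf7l1 (5, 10 and 8 against 9, 12 and 4) and Tcf7l2 (2, 8 and 7 against 12, 5 and 8) overlapped, both encoding TCF factors at the end of the pathway.

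In the Hippo pathway, where LATS kinases restrain the TEAD coactivators YAP and TAZ, Lats1 had 6, 9 and 2 reads in DMSO and 17, 20 and 3 in dTAG13. Wwtr1, which encodes TAZ, had 4, 9 and 4 against 4, 15 and 10 reads, and its window carries the TEAD word. Neither was called in the authors' deposited table, where Lats1 has adjusted p = 0.0957 and Wwtr1 adjusted p = 0.259. In the BMP and NODAL list, Smad5, a signal transducer of BMP, had 14, 8 and 10 against 10, 3 and 8 reads and was among the 17 members without a fold change above 0 in the authors' deposited table (log2 fold change -0.07, SE 0.64). Fst, the activin antagonist follistatin, had 12, 2 and 8 against 6, 21 and 5, with the high value in 1 library.

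Pluripotency genes with a member were Pou5f1, with 5, 3 and 2 against 4, 8 and 4 reads, Lin28a, with 12, 8 and 8 against 10, 10 and 10, and Sall4, with 12, 4 and 13 against 12, 8 and 9. Their adjusted p in the authors' deposited table were 0.45, 0.558 and 0.681. After division by size factors, every dTAG13 library was above every DMSO library at Pou5f1 and Lin28a and not at Sall4. Among genes of extraembryonic lineages, Elf5, a trophoblast ETS factor gene, had 2, 1 and 0 against 4, 4 and 7 reads and was apart. Gata3 had 7, 14 and 6 against 16, 8 and 10, and Afp, the alpha-fetoprotein gene, 4, 6 and 0 against 6, 2 and 4. Etv2, a master gene of blood and endothelium, had 6, 6 and 2 against 18, 6 and 2, nearly all of the difference coming from 1 library.

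The members lay less tightly around the start site than the promoter peaks of both lists. The rule bears on position through the 1 kb limit and by barring overlap with DMSO list peaks. Many of those cover a start site, so a shift away from it can be built in, and nothing is read from it. Of their midpoints, those at most 100 bases from a start of the same gene made up 33.0% (30.8 to 35.3), against 37.4% for promoter peaks of the DMSO list alone and 61.8% for those in both lists. Members covered a start site in 20.2% of cases, against 26.7% and 69.6%. Longer peaks cover a site more easily, and the median lengths were 82, 95 and 231 bases. The part of length was not tested. The midpoint was upstream of the start in 48.8%, against 53.1% and 69.6%. The members' fullest 100 bases were those just upstream of the start, and a smaller rise lay downstream, where 8.14% of midpoints were at 100 to 200 bases and 8.91% at 200 to 300 bases. The other sets had a rise there too, from 5.21% to 7.14% in the DMSO list alone and from 3.05% to 3.45% in both lists.

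**Figure D3:**
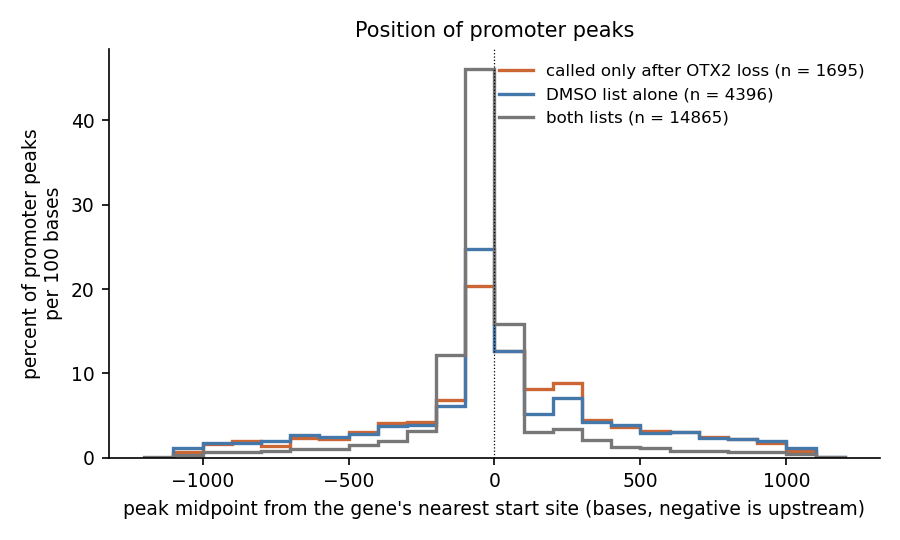
Percent of promoter peaks per 100 bases by the position of the midpoint relative to the nearest start site of the gene (negative is upstream), for members, promoter peaks of the DMSO list alone and those of both lists. All 3 sets peak in the 100 bases upstream of the start, where members have 20.4% of their midpoints, and each set has a smaller rise at 200 to 300 bases downstream.

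Many members lay beside a peak already listed in control cells. A peak of the DMSO list lay within 1000 bases of 1031 members (59.0%, 56.7 to 61.3), within 500 bases of 834 and within 200 bases of 462. For the mirror set, promoter peaks of the DMSO list alone, a dTAG13 list peak lay within 1000 bases in 44.8% (43.4 to 46.3), and for peaks of the dTAG13 list alone outside promoters a DMSO list peak did so in 12.9%. The DMSO list is the longer one, with 65089 peaks against 44391, which by itself makes a DMSO list peak easier to find nearby, and its part in this difference was not tested. Along the gene the member lay downstream of its DMSO neighbour in 643 of 1005 cases (64.0%, 61.0 to 66.9), and in the mirror set the share was 61.4% (59.2 to 63.5).

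**Figure D4:**
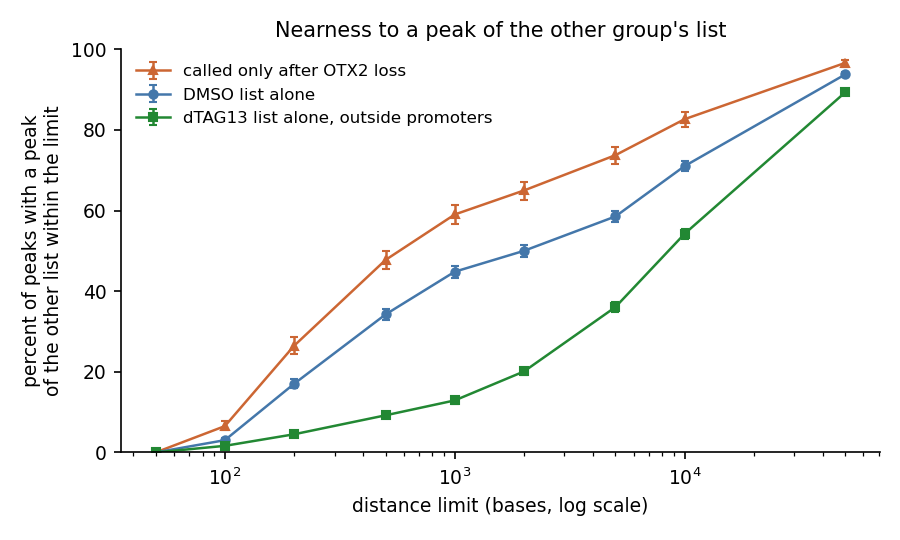
Percent of peaks that have a peak of the other group's list within a given distance (bases, log scale), with 95% Wilson intervals, for members, promoter peaks of the DMSO list alone and peaks of the dTAG13 list alone outside promoters. At 1000 bases the 3 curves read 59.0%, 44.8% and 12.9%.

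The 1031 members beside a DMSO list peak and the 716 without one differed in their DNA. By the usual criterion for CpG-rich sequence (GC of at least 50% and an observed over expected CpG ratio of at least 0.6, here over 200 bases), 62.0% of the former (59.0 to 64.9) and 29.6% of the latter (26.4 to 33.1) were CpG-rich. Predicted Gm genes and Rik clones made up 11.3% and 21.4%. The solitary members were weaker in both groups, with median normalized counts of 2.85 in DMSO and 6.92 in dTAG13 against 4.11 and 8.93. They were called in the authors' deposited table in 5.87% of cases (4.37 to 7.84), and those beside a DMSO list peak in 2.43% (1.65 to 3.56). The share with all dTAG13 libraries above all DMSO libraries was 41.8% and 38.3%, with overlapping intervals. Over all peaks, 1.47% of those tested were called higher, and 9.54% of those solved had this order. The rule uses the same contrast, so nothing is read from the calls or the order in these 2 kinds of member.

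At 1178 members (67.4%) the gene had another promoter peak in the DMSO list, which the control cells therefore already had. The other 569 members (32.6%) were assigned by the authors to 539 genes to which they assigned no DMSO list promoter peak. A DMSO list peak assigned to another gene can still lie nearby: 96 of the 569 had one within 1000 bases, and so did 2 of the 35 called, at Tti2 (211 bases) and Gm9484 (126 bases). Protein-coding genes made up 63.5% of these, against 84.0% of all members with an annotated gene, and Gm or Rik names made up 32.0%. Genes of this group whose member had no DMSO list peak within 1000 bases include Dtx1, Csmd1, Lmx1a, Sox1, Evx1 and T, and also genes known in other tissues, such as Kcna2 (a neuronal potassium channel) and Folr1 (a folate receptor). Kcna2 had 6, 0 and 6 reads in DMSO and 12, 13 and 12 in dTAG13, and Folr1 had 2, 3 and 10 against 15, 18 and 12. Kcna2 was chosen after its values had been seen. In 80 genes there were 2 members, and Gramd1b, with several annotated starts, had 4, none of which was called in the authors' deposited table.

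The promoter peaks of both lists at the same genes had fold changes near 0. In the authors' deposited table the 1190 promoter peaks of both lists at genes with a member had a median log2 fold change of 0.12, with 8 called higher (0.672%) and 4 lower (0.336%). At genes without a member the median was 0.10 over 14164 peaks, with 172 higher (1.22%) and 27 lower (0.191%). Peaks outside promoters assigned to genes with a member had a median of -0.29 in the authors' deposited table, with 54 of 3311 called higher (1.63%) and 153 lower (4.62%). For the other genes with a promoter peak the median was -0.38, with 280 of 19223 higher (1.46%) and 936 lower (4.87%).

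In base composition the members lay between stable promoters and distal peaks. The median GC content of the peak was 62.8% in members, 61.3% in promoter peaks of the DMSO list alone, 65.3% in those of both lists and 52.4% in peaks of the dTAG13 list alone outside promoters. CpG-rich windows were found in 48.7% (46.4 to 51.1), 43.9%, 72.2% and 2.53% of these sets. Members were thus a mixture: with promoter peaks divided into 4 classes of GC content over 200 bases, the classes from low to high held 35.5%, 23.1%, 18.7% and 22.7% of them. Over all peaks the median log2 fold change in the authors' deposited table moved with GC content, from -0.78 in the lowest of 10 GC classes to 0.03 in the highest. Promoter peaks of both lists showed no such trend, with medians of 0.06 in the lowest class, 0.08 in the highest and at most 0.16 between. The part of GC content in the choice of members was not tested.

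Consensus words were counted in the 200 bases around each midpoint, on both strands. The OTX word GGATTA was found in 3.03% of members (2.33 to 3.95), 8.31% of promoter peaks of the DMSO list alone (7.54 to 9.15), 2.81% of those of both lists and 3.98% of all promoter peaks. The reversed word ATTAGG, which has the same composition and is no OTX site, was found in 3.89%, 5.40%, 2.70% and 3.36% of these sets. For the OTX word the members' interval overlapped that of both lists (2.56 to 3.08) and lay below that of the DMSO list alone.

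The TEAD word GGAATG, recognised by the DNA-binding partners of YAP and TAZ, was found in 192 members (10.99%, 9.61 to 12.5), against 8.31% of promoter peaks of the DMSO list alone (7.54 to 9.15), 7.13% of both lists (6.73 to 7.54) and 7.69% of all promoter peaks. Outside promoters, 19.2% of the peaks of the dTAG13 list alone held it. GC content moves with this word, so the sets were compared within the 4 GC classes. In the lowest class (27 to 57.5% GC) the share was 16.1% in members (13.4 to 19.2), 10.96% in the DMSO list alone (9.62 to 12.5) and 10.97% in both lists. In the next class it was 15.1% (12.0 to 19.0), 8.65% and 8.77%. In the 2 GC-rich classes the members' intervals overlapped those of the other sets.

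**Figure D5:**
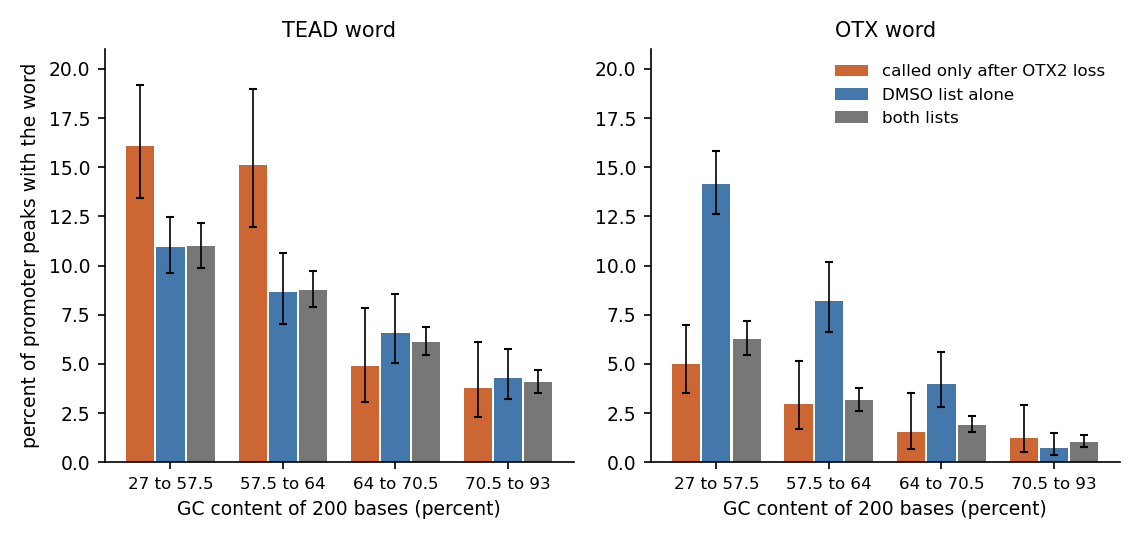
Percent of promoter peaks with the TEAD word (left) and the OTX word (right) in 200 bases around the midpoint, by class of GC content (percent), with 95% Wilson intervals, for members, promoter peaks of the DMSO list alone and those of both lists. Members stand above the other sets for TEAD in the 2 GC-poor classes (16.1% and 15.1%), and the DMSO list alone stands above for OTX in the 3 lower classes (14.1% in the lowest, against 4.99% in members) and below in the highest (0.718% against 1.26%).

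Of the 192 members with the TEAD word, 181 had it outside soft-masked repeats and 163 had a single copy. Copies numbered 3 or more in Gm18326, Gm43326 and Wdr45, chosen here for that number. Both TEAD and OTX words occurred in 6 members. Called members with a TEAD word numbered 13 of 67, among them Fam129b, Epha1, Zfhx4, Tiam1, Dennd1b and Kif26b, and 1 called member, Gm28178, had the OTX word. The width of the window bears on the comparison with stable promoters. Within the peaks alone, which are longer in the stable set, the TEAD share was 6.35% in members, 4.30% in the DMSO list alone and 8.41% in both lists, and within 50 bases of the midpoint it was 6.35%, 3.90% and 3.54%.

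The SP/KLF, NFY and ETS words had lower shares in members than in promoter peaks of both lists. The SP/KLF word GGGCGG was found in 39.2% of members (36.9 to 41.5), 61.6% of both lists and 39.8% of the DMSO list alone. In the same order, the NFY word CCAAT was found in 15.2% (13.6 to 17.0), 32.2% and 18.7%. For the ETS word CCGGAAG the shares were 5.50% (4.52 to 6.66), 13.5% and 5.31%. All promoter peaks held them in 55.2%, 28.0% and 11.1%. Of the words of lineage factors, AGATAA, the one for GATA factors, was found in 5.50% of members and 8.46% of the DMSO list alone. The shares were 10.02% and 12.2% for ACAAAG, the SOX word, and 2.69% and 3.02% for TGTTTAC, the FOX word. The intervals of these 2 sets overlapped for SOX and FOX and not for GATA. Promoter peaks of both lists held the GATA word in 3.63% (3.34 to 3.94), below the members' interval of 4.52 to 6.66. For SOX the interval of both lists, 7.19 to 8.03, also lay below that of members, 8.70 to 11.5. For FOX the interval of both lists, 1.68 to 2.11, overlapped that of members, 2.03 to 3.56. The GATA and SOX words were not compared within the GC classes. Of all members, 486 held none of the 16 words.

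The authors' deposited table marks some genes as up or down. How these marks were made is not stated, so they are given as the table has them. Genes marked up carried 78 members (4.46%, 3.59 to 5.54), against 2.53% of promoter peaks of the DMSO list alone, 3.01% of both lists and 3.03% of all promoter peaks. Genes marked down carried 53 (3.03%, 2.33 to 3.95), against 3.22% of the DMSO list alone and 2.58% of both lists. Called were 6 of the 78 members at genes marked up, 1 of the 53 at genes marked down and 60 of the 1616 with no mark. Over all peaks tested 1.47% were called higher, and the share over all peaks at marked genes is not given here. The rule uses the same contrast, so nothing is read from these counts.

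The 6 called members at genes marked up were those of Dtx1, Zfhx4, Folr1, Tiam1, Dennd1b and Ccdc136, named here because they are few and after their values had been seen. Zfhx4, a zinc finger homeobox gene, had 2, 0 and 2 reads in DMSO and 4, 14 and 10 in dTAG13. Tiam1, an exchange factor gene for the GTPase RAC, had 8, 0 and 6 against 20, 9 and 14. All 6 were apart in every library. The called member at a gene marked down was that of Kif26b, a kinesin family gene, with 6, 4 and 4 against 18, 14 and 7 reads, without overlap. Every library being apart was found in 38.5% of members at genes marked up, 33.96% at genes marked down and 40.0% at genes with no mark. Over all peaks solved the share was 9.54%, and nothing is read from the difference, since the rule uses the same contrast.

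The members closest to a DMSO list peak were those of Gm25070 at 51 bases, Car2 at 52 and Cacna2d1 at 53. Cacna2d1, a calcium channel subunit gene, had 2, 2 and 4 reads in DMSO and 13, 9 and 7 in dTAG13, and an adjusted p (0.0503 by the authors' deposited table) just above the threshold. The log2 fold changes of Gm25070, Car2 and Cacna2d1 in the authors' deposited table were 0.70, 0.97 and 2.37. Of the promoter peaks outside the rule, those of Bloc1s1, Armc2 and BC100451 had the smallest overlap with a DMSO list peak, 61 bases each, which is the whole length of the Bloc1s1 peak. Bloc1s1 had 6, 4 and 7 reads against 8, 6 and 2, Armc2 had 18, 9 and 6 against 8, 8 and 12, and BC100451 had 14, 20 and 6 against 32, 22 and 14. By the authors' deposited table their log2 fold changes were 0.42, 0.35 and 1.32, the first pair below the members' lower quartile of 0.82. The peaks of Gja1, Arap3 and Ammecr1l are placed beyond 1 kb by the authors' column, although their midpoints lay 48, 40 and 59 bases from a start of the same gene in the annotation used here. Gja1 had 2, 8 and 4 against 3, 11 and 4 reads, Arap3 had 6, 4 and 4 against 2, 6 and 6, and Ammecr1l had 4, 6 and 6 against 12, 6 and 8. Pcdhga8, Arhgap26 and Tbc1d24 lay farthest from a start of their own gene in the annotation used here, up to 89340 bases, although the authors' column places them in a promoter.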

How the data were processed

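Chromatin accessibility was measured in 6 libraries, 3 per group. Per the submitters' processing notes, reads were processed with fastp, Bowtie2, MACS2, featureCounts, HOMER 4.11 and ChIPseeker on mm10. Their settings, and the handling of duplicates and read ends, are not given in the sources used here. The deposited signal is a mean over libraries of read counts divided by size factors, as its column name denotes. Log2 fold changes with their standard errors, the score (their ratio), p-values and adjusted p-values were used as deposited. The deposited peak lists, called on all libraries of a group together per the file names, hold positions only, as do the start and end columns. Depth is not given per library; relative depth came from the recovered size factors.

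Peaks were matched to the lists by overlap of at least 1 base. Distances used GENCODE mouse release 21, and sequence came from GRCm38.p6, in which every chromosome is at least as long as its last peak. The genes named are the 10 members with the smallest adjusted p, the 10 with the largest fold change, the 5 with the largest mean count, the listed genes, and the 3 members beside each threshold; others are said to have been chosen by their values. Members, lists and words were chosen with earlier results of these data known.

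Reads per library were not expected to be available. They were recovered after the data had been seen, because peaks with no read in the other group give the step that 1 read is worth in each library. The read numbers were then sought whose negative binomial fit returns the deposited mean, fold change and standard error. A solution was accepted with a misfit under 0.0001 and a next-best misfit over 0.001, limits set after the misfits had been seen. This solved 60172 of 60961 peaks with a mean count under 25, and all 1747 members, 1547 of them with a single candidate. Which library carries which replicate number cannot be told apart. On simulated data, 400 of 400 members were solved exactly, and 400 of 400 overlaps and 320 of 320 planted words were found. limma called 169 of 200 peaks changed 4-fold and 2 of 59972 unchanged ones. The simulated reads were negative binomial with 1 dispersion for all peaks and no excess of even numbers. Their values were made with the same fit that the solving inverts. The changed peaks had a mean normalized count of at least 5, so the 169 of 200 does not cover weaker peaks. limma used log2(normalized reads + 1). Wilson intervals (95%) cover counting error over peaks only, and peaks are not replicates of a condition. No other per-sample column was present (0). Alternatives covered overlap, promoter distance, threshold, centring, filters, window and libraries. Software: Python 3.11.15, numpy 2.4.6, pandas 2.3.3, scipy 1.17.1, numba 0.67.0, pysam 0.24.0, matplotlib 3.10.9, R 4.3.3 and limma 3.58.1.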

Additional observations from a re-analysis of the deposited data

How the results depend on the processing

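Of 103 alternative values, 54 were not moved and 49 moved. Values were sorted by size of change only, so a reversal of direction was not looked for. A mean normalized count of at least 5 left 1132 of the 1747 members and gave a median GC of 65.0%, a CpG ratio of 0.657, a DMSO list peak within 1000 bases for 69.6% and a gene marked up for 5.57%. The other overlap, distance and promoter definitions gave between 1633 and 2510 members. The 67 calls became 12 at an adjusted p under 0.01. With the median of all peaks set to 0 (a shift of -0.18 on the log2 scale) the 67 became 137. Over all peaks, the 1016 called higher became 1958 with that shift. With the median of each of 10 GC classes set to 0, the calls were 109 in members and 2170 over all peaks. Centring on peaks of both lists gave 53 in members and 790 over all peaks. The 98 limma calls became 13 to 33, and the 39.7% of members with groups apart became 49.2 to 54.6%, when any 1 library was left out; fewer libraries lower the power and make separation easier by construction. Median GC was 61.0% over 200 bases. The OTX share was 1.32% within 50 bases, 1.26% in the peak and 4.99% in the lowest of 4 GC classes; the TEAD share was 6.35%, 6.35% and 16.1%. For the other 14 words, 20 of 56 values moved, all to lower shares. A DMSO list peak lay within 500 bases of 47.7% and within 2000 bases of 65.0%. For other moved values the cause was not tested. No paired analysis was possible because the table holds no values per replicate and the recovered libraries carry no replicate number. The median of 35 reads per member limits the precision of each peak.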
